A study of Mus musculus with 6 samples.

Results

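Mature microRNAs (miRNAs) of mesoderm and mesenchyme were counted in 6 libraries of small RNA from embryonic stem cells of the mouse. The group was defined by name, as mmu-miR-143-3p, mmu-miR-145a-5p, mmu-miR-133a-3p, mmu-miR-199a-3p, mmu-miR-199b-3p, mmu-miR-199a-5p and mmu-miR-214-3p, where mmu stands for mouse and is left out from here on. These 7 mature miRNAs fill 6 of the 1899 entries counted, since miR-199a-3p and miR-199b-3p have the same letters and share an entry, written miR-199a/b-3p here. The cells were of strain 129/Ola and were either wild type (WT) or knocked out for Wt1 (KO), the gene of a zinc finger transcription factor that the kidney, the gonads and the mesothelium need. There was 1 library per group. WT and Wt1 KO cells were each sequenced untreated and after retinoic acid (RA, 1 µM, written 1 µm in the labels), a vitamin A derivative that makes stem cells differentiate, and the other two libraries came from Wt1 KO cells in which Wt1 had been induced with doxycycline (dox, 1 µg/ml) for 12 h or 24 h. The cells were maintained on gelatin in medium with serum and leukemia inhibitory factor (LIF). The length of the RA treatment, the number of knockout clones and the promoter behind the inducible Wt1 are not stated by the labels, which also do not say whether the untreated Wt1 KO library and the dox libraries come from the same line. These libraries hold no mRNA, so Wt1 itself was not checked.

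miR-143 and miR-145 are processed from a shared transcript and are abundant in smooth muscle and in mesenchymal cells, where they favour the contractile, differentiated state, and in human embryonic stem cells miR-145 is known to repress OCT4, SOX2 and KLF4. miR-133a is made together with miR-1 in skeletal and heart muscle and restrains the division of heart muscle cells in the mouse. miR-199a and miR-214 are cut from the long non-coding RNA Dnm3os, which is transcribed in embryonic mesenchyme and is needed for normal growth of the mouse skeleton.

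The sequences of the miR-199 and miR-214 miRNAs are shown because they decide which hairpin a read can be assigned to. They are given 5′ to 3′ as in the deposited tables, with U for T and the seed (bases 2 to 8) in capitals. RefSeq lists 4 of the 5 as mature miRNAs with the same letters, and the remaining sequence, miR-199b-5p, lies within its Mir199b hairpin.
miR-199a/b-3p: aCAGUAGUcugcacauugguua
miR-199a-5p: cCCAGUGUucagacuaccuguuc
miR-199b-5p: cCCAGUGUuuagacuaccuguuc
miR-214-3p: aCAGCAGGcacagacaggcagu
miR-214-5p: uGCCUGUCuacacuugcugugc

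miR-199a-5p and miR-199b-5p share the seed CCAGUGU and differ by 1 substitution over 23 bases, C10U, counted from the 5′ end. Their 5′ arms can therefore be told apart by a base, while the 3′ arm cannot. The hairpins are printed next with the mature arms in capitals (RefSeq, build GRCm38.p6), to show that 3 separate loci carry an identical 3′ arm.
Mir199a-2: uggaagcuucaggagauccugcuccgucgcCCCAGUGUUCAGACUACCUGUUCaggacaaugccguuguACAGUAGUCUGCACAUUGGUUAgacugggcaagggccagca
Mir199a-1: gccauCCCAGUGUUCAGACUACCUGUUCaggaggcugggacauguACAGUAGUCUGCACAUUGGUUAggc
Mir199b: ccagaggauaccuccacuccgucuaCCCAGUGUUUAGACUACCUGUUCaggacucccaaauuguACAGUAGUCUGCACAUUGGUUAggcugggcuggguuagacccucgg
Mir214: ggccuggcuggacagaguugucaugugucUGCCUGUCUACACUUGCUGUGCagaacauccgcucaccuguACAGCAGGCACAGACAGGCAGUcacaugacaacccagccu

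Mir199a-2 (chr1:162217814-162217923, plus strand) and Mir214 (chr1:162223368-162223477, plus strand) are 5444 bases apart and both overlap an exon of Dnm3os (chr1:162217623-162225550 in GENCODE M21, also GRCm38), inside an intron of Dnm3 on the opposite strand. Mir199a-1 (chr9:21496495-21496564, minus strand) lies antisense to an intron of Dnm2. Mir199b (chr2:32318460-32318569, plus strand) lies antisense to an intron of Dnm1. A read of miR-214 thus points to the chromosome 1 locus, a read of miR-199b-5p to chromosome 2, a read of miR-199a-5p to chromosome 1 or 9, and a read of miR-199a/b-3p to any of the 3. By seed most members stand nearly alone. The exception is miR-199a-5p, whose seed is shared with miR-199b-5p, at 19 reads over the 6 libraries against 117 of miR-199a-5p. No other of the 1899 entries has the seed of miR-143-3p or of miR-199a/b-3p. The seed of miR-214-3p is shared with miR-761, which had 0 reads over the 6 libraries, that of miR-145a-5p with miR-145b, also 0 reads, and that of miR-133a-3p with miR-133b-3p and miR-133c, 1 read together against 3042 of miR-133a-3p.

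Depth sets what can be seen. The libraries held 83626 (Wt1 KO with RA) to 6106104 (WT with RA) uniquely matched reads, a 73.0-fold range. Levels are read counts scaled for depth (normalised CPM, reads per 1e6 with trimmed-mean, or TMM, factors). A count of 3, the limit that a count of 0 allows, equals 27.8 normalised CPM in Wt1 KO with RA and 0.448 to 2.75 in the other libraries. Brackets hold 95% intervals for counting error only, because PCR copies cannot be recognised in these reads and no group has a replicate. No difference below has a replicate check or a p-value, and each compares libraries rather than conditions. Higher and lower are calls of size, made where the log2 ratio reaches 1 or -1 with an interval that excludes 0. The same rule over the 351 entries whose count averaged at least 50 gives the background. It differs at 0 reads, where a member's 0 is set to 3 counts and a background entry's 0 is given a prior count of 0.5. Of the 6 member entries 3 reach that mean (miR-143-3p, miR-133a-3p and miR-199a/b-3p), and miR-145a-5p, miR-199a-5p and miR-214-3p, with mean counts of 32.2, 19.5 and 16.5, do not. miR-133a-3p reaches it only through WT with RA, which holds 2830 of its 3042 reads. Counts out of 6 entries set beside the background below include miR-145a-5p, miR-199a-5p and miR-214-3p, which are not in it. The stem cell label was checked on 9 miRNAs of the miR-290 and miR-302 clusters, whose levels summed to between 106534 and 187038 normalised CPM where no RA was given, to 5547 for WT with RA and to 55007 for Wt1 KO with RA. Most of each sum was miR-295-3p. Between the untreated libraries the sum was 106534 in WT and 136410 in Wt1 KO. The 3 miR-302 entries were instead called lower in Wt1 KO there, at -2.53 (miR-302a-3p), -2.28 (miR-302b-3p) and -2.15 (miR-302d-3p), and 0 of the 9 were called higher.

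The members were a small part of each library, and larger with RA. Together they took 0.0382% [0.0345 to 0.0421] of the reads in untreated WT, 0.0430% [0.0400 to 0.0462] in untreated Wt1 KO, 0.0668% [0.0623 to 0.0715] at dox 12 h, 0.0651% [0.0625 to 0.0678] at dox 24 h, 0.113% [0.110 to 0.116] in RA-treated WT and 0.629% [0.577 to 0.685] in RA-treated Wt1 KO. The intervals of the RA libraries do not overlap each other or those of the libraries without RA. In bulk RNA, fewer cells of a kind and less of the miRNA per cell cannot be told apart. Of the 6 entries, 4 had their highest normalised level in Wt1 KO with RA, as did 72 of the 351 background entries (20.5%, or up to 30.5% under other scalings). Within the members' reads miR-143-3p held the largest share in each library, from 44.2% in WT with RA to 84.0% after 12 h of dox.

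**Figure D1:**
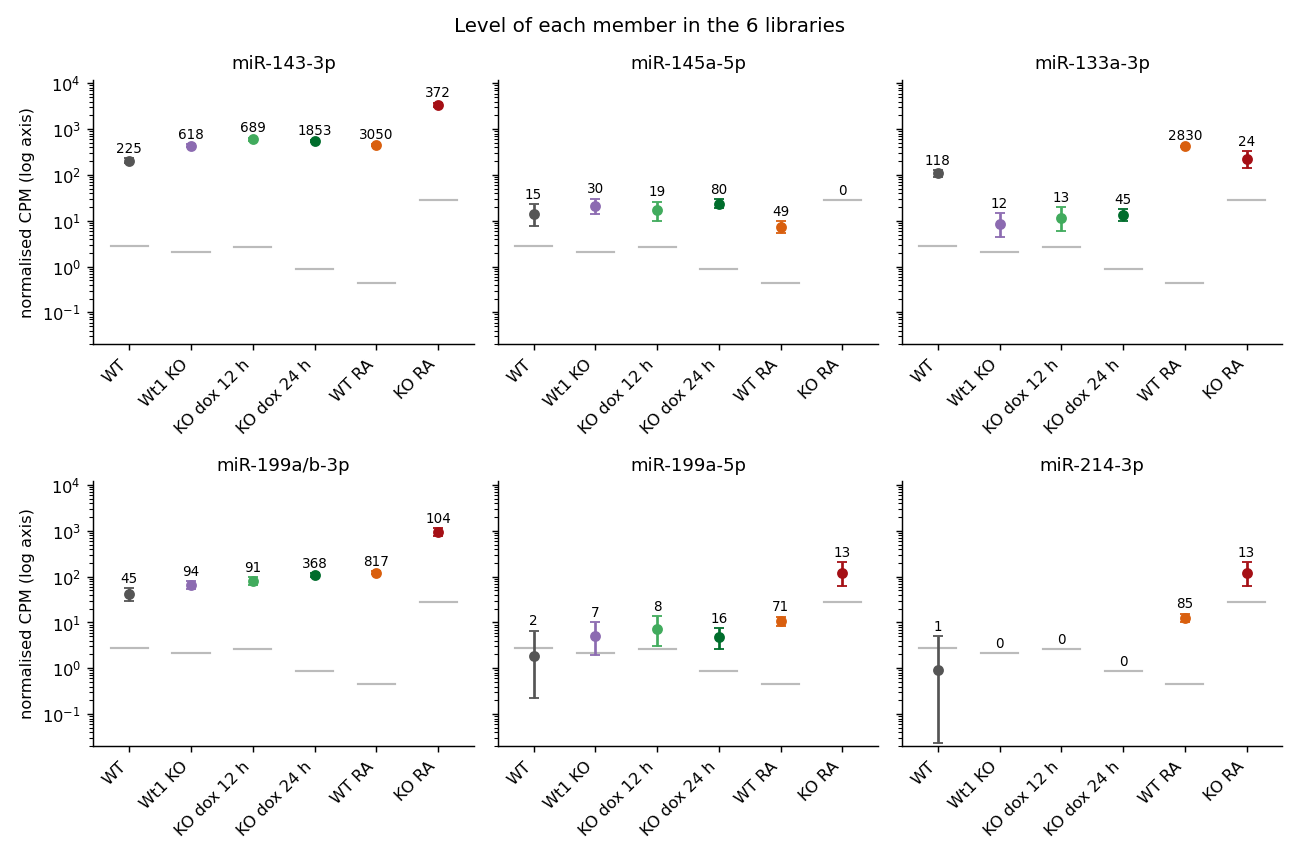
Normalised CPM (log axis) of the 6 member entries in each library, with 95% Poisson intervals and the number of reads above each point. Grey bars mark the level of 3 counts, and an entry with 0 reads has no point. miR-143-3p, both miR-199 entries and miR-214-3p are highest in Wt1 KO with RA, and miR-133a-3p in WT with RA.

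miR-143-3p was the most abundant member, with 225 reads for untreated WT, 618 for untreated Wt1 KO, 689 at dox 12 h, 1853 at dox 24 h, 3050 in WT with RA and 372 in the shallow library of Wt1 KO with RA. As normalised CPM these were 207, 438, 609, 545, 456 and 3443 in the same order. Wt1 KO with RA stood far above the rest, untreated WT was lowest, and the other 4 libraries lay between 438 and 609. Among these 4, WT with RA and untreated Wt1 KO were the neighbours whose ratio had an interval that includes 0, at 0.06 [-0.07 to 0.18] on the log2 scale.

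miR-145a-5p, processed from the same transcript, was scarce. It had 15 reads for untreated WT, 30 for untreated Wt1 KO, 19 at dox 12 h, 80 at dox 24 h, 49 in RA-treated WT and 0 in RA-treated Wt1 KO. Its levels were 13.8, 21.3, 16.8, 23.5 and 7.32 normalised CPM in the first 5, and the 0 of 83626 reads allows 27.8 by the 3-count limit and 34.1 by the 95% Poisson limit. WT with RA was the lowest library with reads, and no pair of neighbours in the order of levels differed beyond counting error. Further apart in the order, the interval of WT with RA [5.41 to 9.68] lay below those of untreated Wt1 KO [14.3 to 30.4], dox 12 h [10.1 to 26.2] and dox 24 h [18.6 to 29.3].

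The pair moved apart with RA. This comparison is within a library and needs no scaling. miR-145a-5p made up 6.25% [3.54 to 10.1] of the reads of the pair in untreated WT, 4.63% [3.15 to 6.54] in untreated Wt1 KO, 2.68% [1.62 to 4.16] after 12 h and 4.14% [3.30 to 5.12] after 24 h of dox. It made up 1.58% [1.17 to 2.09] in RA-treated WT and 0% [0 to 0.987] in RA-treated Wt1 KO. The interval of WT with RA lies below those of untreated WT, untreated Wt1 KO and dox 24 h and overlaps that of dox 12 h, and the interval of Wt1 KO with RA lies below all of the others. At the ratio of untreated Wt1 KO, the 372 reads of miR-143-3p in Wt1 KO with RA would come with 18.1 reads of miR-145a-5p, and at the ratio of WT with RA with 5.98. The minor arms give little: miR-145a-3p had 0 to 13 reads per library, and miR-143-5p had 2 reads in WT with RA and 0 elsewhere. Ligation favours some ends over others, so a ratio of reads between miRNAs is not a ratio of molecules.

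**Figure D2:**
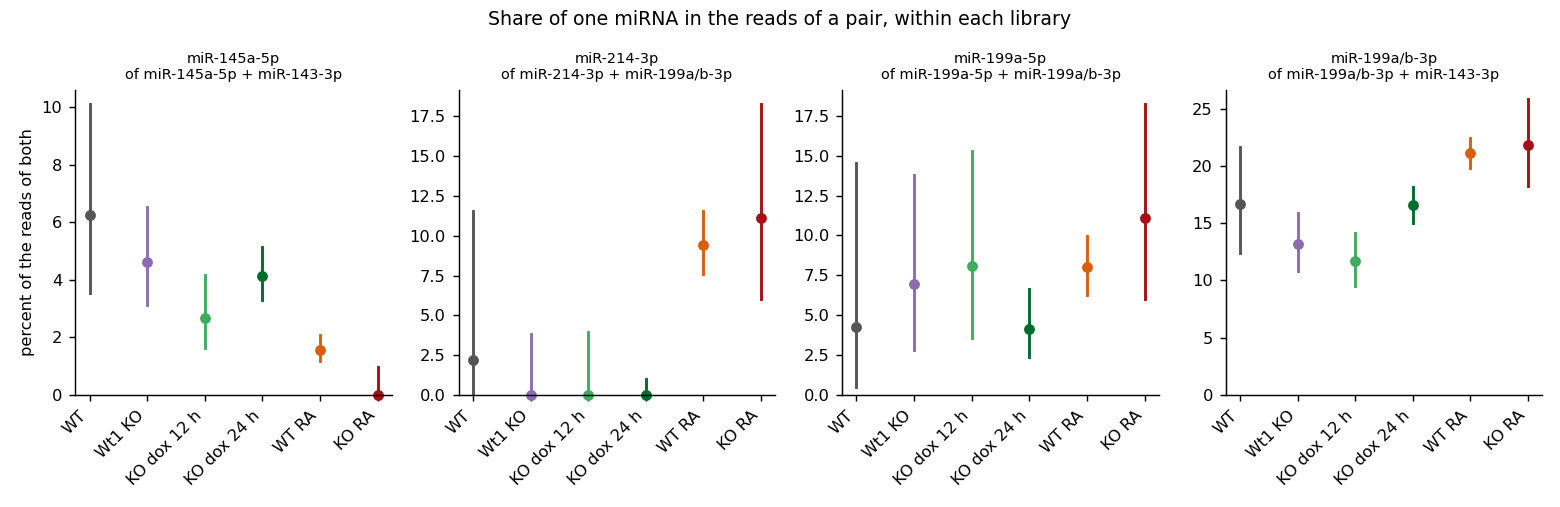
Percent of the reads of a pair that belong to the miRNA named first in each panel's title, with exact binomial 95% intervals, in each of the 6 libraries. miR-145a-5p falls from 6.25% in untreated WT to 1.58% in WT with RA. miR-214-3p goes from at most 2.17% without RA to 9.42% and 11.1% with RA, but its interval in untreated WT [0.06 to 11.5], from 1 read, overlaps both. miR-199a-5p lies between 4.17% and 11.1% with wide intervals, and miR-199a/b-3p beside miR-143-3p lies between 11.7% and 21.8%.

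miR-133a-3p followed another course. It had 118 reads for untreated WT, 12 for untreated Wt1 KO, 13 at dox 12 h, 45 at dox 24 h, 2830 in RA-treated WT and 24 in RA-treated Wt1 KO. In normalised CPM these were 108, 8.50, 11.5, 13.2, 423 and 222 [142 to 331]. Both RA libraries were the highest, untreated WT came next, and the 3 Wt1 KO libraries without RA were lowest and did not differ from each other beyond counting error. Its share of the reads of miR-143-3p and miR-133a-3p was 34.4% in untreated WT and 48.1% in WT with RA, against 1.90% in untreated Wt1 KO and 6.06% [3.92 to 8.88] in Wt1 KO with RA.

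Most other muscle miRNAs were at 0 reads. miR-1a-3p, whose hairpins neighbour those of miR-133a (Mir1a-1 and Mir133a-2 lie 9254 bases apart on chromosome 2), had 0 uniquely or multiply matched reads in all 6 libraries, and 3 counts in the deepest, WT with RA, equal 0.448 normalised CPM. miR-206-3p, a miRNA of skeletal muscle, also had 0 reads. Of the 17 entries of a list of muscle and heart miRNAs, 10 had no read in any library. miR-208a-3p and miR-208b-3p, made from introns of heart myosin genes, reached 2 and 9 reads in WT with RA, and miR-499-5p, made from another myosin intron, reached 8 after 24 h of dox. The 3 entries of the list that reach a mean of 50 are not confined to muscle. They are the shared entry of miR-486b-5p and miR-486a-5p, at 438 to 1058 normalised CPM, miR-378a-3p at 1766 to 5029 and miR-378a-5p at 17.4 to 54.6. With RA, the miR-486 entry was higher in WT (log2 ratio 1.27 [1.14 to 1.41]) and miR-378a-3p lower in Wt1 KO (-1.25 [-1.47 to -1.04]). miR-133b-3p, which is nearly identical to miR-133a-3p, had 1 unique read, and both list 35 multi-matched reads in WT with RA.

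The miR-199 entries come next. miR-199a/b-3p had 45 reads for untreated WT, 94 for untreated Wt1 KO, 91 at dox 12 h, 368 at dox 24 h, 817 in RA-treated WT and 104 in RA-treated Wt1 KO, or 41.3, 66.6, 80.4, 108, 122 and 963 normalised CPM. It was lowest in untreated WT and highest in Wt1 KO with RA, as was miR-143-3p. miR-199a-5p had 2, 7, 8, 16, 71 and 13 reads in the same order, or 1.84, 4.96, 7.07, 4.70, 10.6 and 120.3 normalised CPM. Wt1 KO with RA was the library that stood apart, and no pair of neighbours among the other 5 differed beyond counting error. Further apart in the order, the interval of WT with RA [8.28 to 13.4] lay above those of untreated WT [0.22 to 6.63] and dox 24 h [2.69 to 7.64].

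miR-214-3p was nearly confined to the RA libraries. It had 1 read for untreated WT, 0 for untreated Wt1 KO and at both dox times, 85 in RA-treated WT and 13 in RA-treated Wt1 KO. The RA levels were 12.7 [10.1 to 15.7] and 120.3 [64.1 to 206] normalised CPM, and the 3 counts that a 0 allows equal 2.13 for untreated Wt1 KO, 2.65 at dox 12 h and 0.882 at dox 24 h. Its passenger arm miR-214-5p had 18 and 2 reads in the RA libraries and 0 elsewhere. miR-199b-5p, from the chromosome 2 hairpin, had 18 reads in WT with RA, 1 after 24 h of dox and 0 elsewhere.

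Shares within a library, which need no scaling, were compared for the arms that differ between loci. miR-214-3p made up 9.42% [7.60 to 11.5] of its reads plus those of miR-199a/b-3p in RA-treated WT and 11.1% [6.05 to 18.3] in RA-treated Wt1 KO, intervals that overlap. After 24 h of dox it made up 0% [0 to 0.997], although miR-199a/b-3p had 368 reads there, and this interval lies below those of both RA libraries. So do the intervals of untreated Wt1 KO, 0% [0 to 3.85], and of dox 12 h, 0% [0 to 3.97]. That of untreated WT, 2.17% [0.06 to 11.5] from 1 read, overlaps both. miR-199a-5p made up 4.17% [2.40 to 6.68] to 11.1% [6.05 to 18.3] of its reads plus those of miR-199a/b-3p, and the 6 intervals all overlap. miR-199b-5p made up 20.2% [12.4 to 30.1] of the 2 kinds of 5′ arm in RA-treated WT and 0 of 13 reads in RA-treated Wt1 KO, which allows up to 24.7%. Which hairpins gave the 3′ arm in the libraries without RA cannot be told apart.

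Between the untreated genotypes the question is what differs where Wt1 is missing. miR-133a-3p was much lower in Wt1 KO, with a log2 ratio of -3.62 [-4.66 to -2.81]. At its share of reads in WT, the Wt1 KO library would hold 196 reads of it, against 12 found. miR-143-3p was higher, at 1.08 [0.86 to 1.31]. Its ratio was 0.72 as CPM of the total and 0.74 with the stem cell clusters miR-290 and miR-302 taken out of the total, both under the size rule. miR-199a/b-3p was at 0.68 [0.16 to 1.24], miR-145a-5p at 0.60 [-0.31 to 1.63] and miR-199a-5p at 1.21 [-0.96 to 4.74], which includes 0. So 1 of the 6 entries was higher and 1 lower, and of the 351 background entries 12.3% were higher and 15.4% lower (43 and 54, or 24 and 78 as CPM of the total). Among the background ratios miR-133a-3p was the 8th from the lowest and miR-143-3p the 37th from the highest. A list of 14 other mesenchyme, fibroblast and cartilage miRNAs had 9 entries in the background, of which 4 were lower and 0 higher, with a median of -1.14 against 0.11 for all 351. miR-21a-5p, known from fibrosis, was at -2.98, miR-31-5p at -2.22, miR-22-3p at -1.92 and miR-222-3p at -1.71. miR-378a-3p and miR-378a-5p of the muscle list were higher, at 1.25 [1.18 to 1.33] and 1.62 [0.91 to 2.45].

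With RA in WT cells most members were more abundant. Of the 6 entries 5 were higher and 0 lower. miR-133a-3p had a log2 ratio of 1.96 [1.70 to 2.24], miR-199a/b-3p of 1.55 [1.13 to 2.03] and miR-143-3p of 1.14 [0.95 to 1.34]. miR-214-3p, at 3.21 [1.27 to 9.11], and miR-199a-5p, at 2.22 [0.62 to 5.60], rest on 1 and 2 reads in untreated WT. miR-145a-5p was at -0.94 [-1.77 to 0.03], and was called lower by the median of ratios (-1.03 [-1.85 to -0.05]) and without the stem cell clusters (-1.09 [-1.91 to -0.11]). In the background 22.2% of entries were higher and 24.2% lower, so calls in either direction were common, and the 3 members tested there ranked 30th (miR-133a-3p), 45th (miR-199a/b-3p) and 74th (miR-143-3p) from the highest of 351. Since miR-133a-3p reached the minimum mean only through WT with RA, its rank here is no support. miR-143-3p lost its call at 0.99 as CPM without the stem cell clusters. Of the 9 tested entries of the mesenchyme list 1 was higher, miR-218-5p at 2.66 [1.95 to 3.59], and 4 were lower, miR-21a-5p, miR-222-3p, miR-29a-3p and miR-140-3p, the last an arm of a cartilage miRNA. The list's median was -0.91, against 0.13 for all 351.

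**Figure D3:**
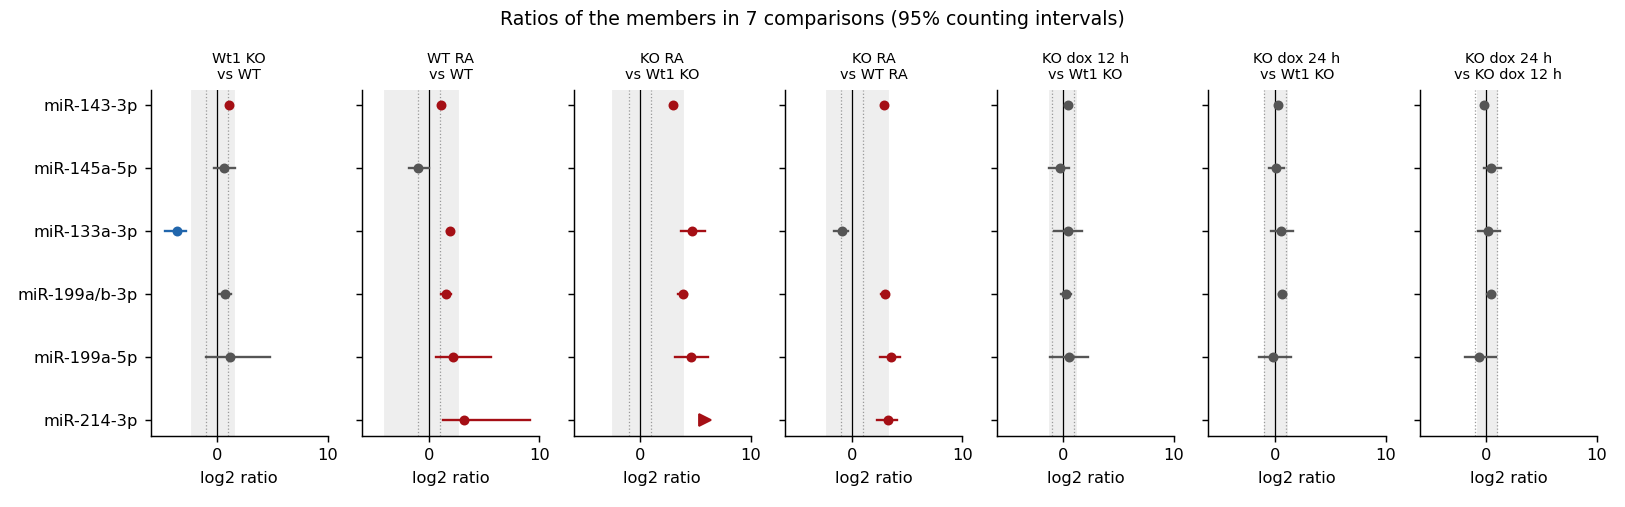
Log2 ratios of the 6 member entries in 7 comparisons, with 95% counting intervals. Red marks entries called higher, blue lower and grey neither. The arrowhead marks the ratio of miR-214-3p with the 0 reads in untreated Wt1 KO set to 3 counts, without a counting interval, other ratios against 0 reads are left out, dotted lines mark 1 and -1, and the grey band spans the 5th to 95th percentile of the 351 background entries. The calls fall in the 4 comparisons with RA or between the untreated genotypes, and there are 0 in the 3 dox comparisons.

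In Wt1 KO cells the ratios with RA were larger. miR-199a/b-3p was at 3.85 [3.44 to 4.27], miR-133a-3p at 4.68 [3.65 to 5.84], miR-143-3p at 2.98 [2.79 to 3.16] and miR-199a-5p at 4.56 [3.17 to 6.17]. miR-214-3p, with 13 reads against 0, was at least 56.6-fold higher when the 0 is set to 3 counts, which leaves out the counting error of the 13 reads. With that error the log2 ratio's interval starts at 5.31. miR-145a-5p, with 0 reads against 30, has no fold, since its level of 21.3 normalised CPM in untreated Wt1 KO is under the 27.8 that a 0 allows in the RA library. Thus 5 of 6 entries were higher and 0 lower, against a background of 23.6% higher and 22.5% lower (83 and 79, or 126 and 33 as CPM of the total, a shift of the median by 0.70). The ratios of miR-133a-3p, miR-199a/b-3p and, last, miR-143-3p ranked 15th, 20th and 28th from the highest of 351. Of the 9 tested mesenchyme list entries 3 were higher and 0 lower, miR-21a-5p at 1.81, miR-455-3p at 2.53 and miR-218-5p at 4.48, with a median of 0.24 against -0.05.

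This library was the shallowest, and the sum of the entries taken as a sign of RNA quality was highest in it. The 4 listed entries reported to overlap rRNA or tRNA, of which 3 had reads and miR-1957a had 0 in each library, summed to 2425 normalised CPM in Wt1 KO with RA and 419.7 to 1128 in the others. Most of that sum was miR-6240, at 2055 normalised CPM in Wt1 KO with RA and at most 773 elsewhere. miR-5126 was at 333 in Wt1 KO with RA, 53.5 in WT with RA and 527 in untreated Wt1 KO. miR-6236 was at 37.0 in Wt1 KO with RA, on 4 reads, and at most 7.95 elsewhere. With RA the entries with reads were called higher in Wt1 KO than in WT. Their log2 ratios were 2.50 (miR-6240), 2.66 (miR-5126) and 3.29 [1.17 to 4.66] (miR-6236). Against untreated Wt1 KO, miR-6240 (2.74) and miR-6236 (2.79) were called higher and miR-5126 (-0.64) was not called. The part of these entries in the members' levels was not tested. Markers of other cell types were present in part. Of the 6 blood entries miR-223-3p, a myeloid miRNA, and the red cell miRNAs miR-144-3p and miR-451a had 0 reads in all 6 libraries, and the blood sum was 222 normalised CPM in Wt1 KO with RA and 59.9 to 4200.1 elsewhere. Most of that sum was miR-150-5p, a lymphocyte miRNA, at 2937 normalised CPM in untreated Wt1 KO and 204 with RA. miR-142a-5p, of blood cells in general, had 33 reads at dox 12 h, 71 at dox 24 h and at most 4 elsewhere, and was called higher at both times, at 3.21 [1.87 to 5.32] and 2.72 [1.46 to 4.79]. The other arm, miR-142a-3p, had 6 reads in untreated Wt1 KO, 1 at dox 12 h and 6 at dox 24 h. Its ratios pointed the other way without a call, at -1.80 [-7.79 to 0.78] and -1.27 [-3.17 to 0.63]. Both endothelial entries, the arms of miR-126a, summed to 213 normalised CPM in Wt1 KO with RA and to at most 122 elsewhere. Only miR-126a-5p was highest in that library, at 157 (17 reads) against at most 49.5 elsewhere. miR-126a-3p, at 72.4 after 12 h of dox, was at 55.5 (6 reads) in Wt1 KO with RA. The 3 neural entries summed to 241 there and 196 to 476 elsewhere, and the 4 endoderm entries to 352 there and 178 to 360.4 elsewhere. Among the latter miR-375-3p, of pancreatic islets, was higher with RA in WT (1.81 [1.49 to 2.17]) and in Wt1 KO (1.42 [0.54 to 2.15]). miR-192-5p (0.10 in WT, 0.69 in Wt1 KO) and miR-194-5p (-0.43 and 0.77) were called in neither, with intervals that include 0. The part of these cell types was not tested either. At the shares found in RA-treated WT, the shallow library would hold for miR-143-3p 41.8 reads (372 found), miR-199a/b-3p 11.2 (104), miR-199a-5p 0.972 (13) and miR-214-3p 1.16 (13). For miR-133a-3p that number is 38.8, above the 24 found.

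With RA in both genotypes, Wt1 KO was compared with WT. The ratios of miR-143-3p, miR-199a/b-3p, miR-199a-5p and miR-214-3p were 2.92 [2.76 to 3.07], 2.99 [2.67 to 3.28], 3.55 [2.53 to 4.37] and 3.29 [2.28 to 4.09], all higher in Wt1 KO. miR-133a-3p was at -0.90 [-1.57 to -0.35], lower but short of the size rule. So 4 of 6 entries were higher and 0 lower, against 18.8% and 19.1% of the background (66 and 67, 82 and 42 as CPM of the total, or 80 and 47 with median-of-ratios scaling). miR-199a/b-3p ranked 21st and miR-143-3p 22nd from the highest of 351. Of the 9 tested mesenchyme list entries 1 was higher (miR-29a-3p, 1.61 [0.29 to 2.54]) and 1 lower (miR-31-5p, -1.10 [-1.59 to -0.68]), with a median of 0.62 against 0.03 for all 351. The miRNAs miR-10a-5p and miR-10b-5p, encoded in the Hox clusters that RA activates, went the other way, with a sum of 95127 normalised CPM in WT and 17188 in Wt1 KO with RA.

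The difference between the RA responses (the log2 ratio in Wt1 KO minus that in WT, with a delta-method interval on the 4 counts) was 1.84 [1.57 to 2.11] for miR-143-3p, 2.30 [1.72 to 2.89] for miR-199a/b-3p, 2.72 [1.70 to 3.74] for miR-133a-3p and 2.34 [0.11 to 4.57] for miR-199a-5p. The last call is lost with a prior count of 0.1, at 2.13 [-0.25 to 4.51]. In the background the response was larger in Wt1 KO for 23.1% of entries and smaller for 15.1%. For miR-143-3p and miR-199a/b-3p the difference comes with a higher level in Wt1 KO with RA. For miR-133a-3p it comes with a lower start in untreated Wt1 KO, 8.50 against 108 normalised CPM, and its level with RA did not exceed that in WT. miR-145a-5p and miR-214-3p have a library at 0 among the 4 and are left out, while background entries with a 0 were kept. Of the 9 tested mesenchyme list entries 7 had a larger response in Wt1 KO and 0 a smaller one, with a median of 1.51 against 0.06 for all 351.

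Induction of Wt1 in Wt1 KO cells moved the members little. After 12 h of dox miR-143-3p was at 0.47 [0.32 to 0.63], miR-199a/b-3p at 0.27 [-0.16 to 0.70], miR-133a-3p at 0.43 [-0.82 to 1.70], miR-199a-5p at 0.50 [-1.15 to 2.21] and miR-145a-5p at -0.33 [-1.25 to 0.54]. After 24 h miR-143-3p was at 0.31 [0.18 to 0.45], miR-199a/b-3p at 0.69 [0.37 to 1.04], miR-133a-3p at 0.59 [-0.31 to 1.69], miR-199a-5p at -0.13 [-1.44 to 1.45] and miR-145a-5p at 0.13 [-0.48 to 0.80]. miR-214-3p had 0 reads in all 3 Wt1 KO libraries without RA, which gives no ratio. No member passed the size rule at either time under TMM scaling, and miR-199a/b-3p passed it at 24 h without the stem cell clusters (1.00 [0.68 to 1.35]), while 4.27% of the background was higher and 8.55% lower at 12 h (15 and 30, or 35 and 13 as CPM of the total), and 5.7% higher and 3.7% lower at 24 h (20 and 13, or 31 and 10). These 2 comparisons share the untreated Wt1 KO library. Between 24 h and 12 h of dox miR-143-3p was at -0.16 [-0.29 to -0.03] and miR-199a/b-3p at 0.42 [0.09 to 0.78], with 4.27% of the background higher and 1.14% lower and 0 of 6 members past the rule. miR-133a-3p, low in untreated Wt1 KO, stayed at 11.5 [6.12 to 19.6] and 13.2 [9.65 to 17.7] normalised CPM after dox, and these intervals exclude the 108 of untreated WT.

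For the 3 members in the background, the miRNAs with the most alike profile were found as those with the smallest root mean square difference of the centred log2 level over the 6 libraries. miR-143-3p and miR-199a/b-3p lay 0.39 log2 units from each other, although they come from different chromosomes. Nearest to miR-143-3p among other entries were miR-126a-5p (0.37), miR-136-3p (0.46), miR-340-5p (0.56), miR-376b-3p (0.58) and miR-138-5p (0.64). Nearest to miR-199a/b-3p were miR-136-3p (0.43), miR-340-5p (0.54), miR-126a-5p (0.75), miR-369-3p (0.75) and miR-380-3p (0.76). miR-133a-3p was 2.27 and 2.04 units from these 2 members, and lay nearest to miR-181b-5p (0.37), miR-181a-5p (0.43), miR-125b-1-3p (0.53), miR-125b-5p (0.55) and let-7e-5p (0.71). miR-181b-5p had 797 normalised CPM for untreated WT, 44.6 for untreated Wt1 KO, 86.6 and 106 after dox, 4476 in RA-treated WT and 2453 in RA-treated Wt1 KO, the order seen for miR-133a-3p. The 6 points share their libraries and their scaling, so likeness here describes these libraries.

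**Figure D4:**
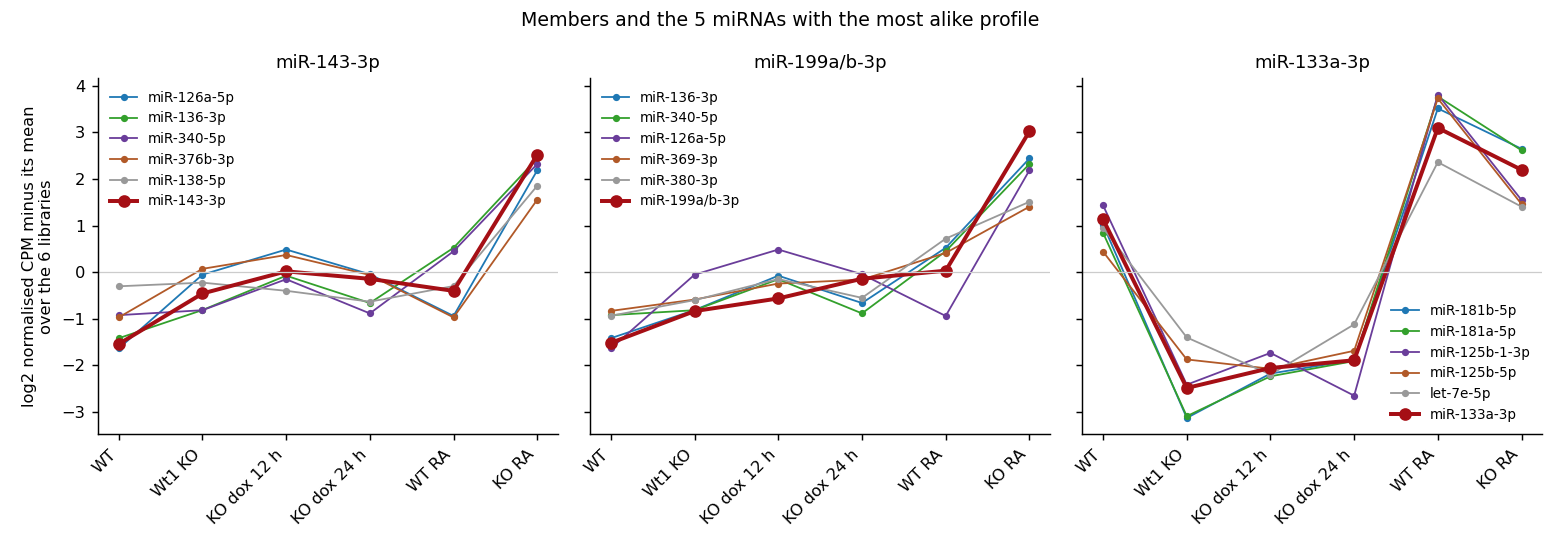
Log2 normalised CPM in each of the 6 libraries, centred on its mean over them, of 3 members (thick red) and of the 5 miRNAs with the most alike profile (thin lines). miR-143-3p and miR-199a/b-3p peak in Wt1 KO with RA, and miR-133a-3p peaks in WT with RA and is low in the 3 Wt1 KO libraries without RA.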

How the data were processed

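Total RNA was ligated to adapters, reverse transcribed, amplified and cut from a gel as a miRNA band and a band of longer small RNAs, per the labels' protocols. The deposited tables hold counts of reads per mature miRNA, in columns for unique matches and multi-matches, per the file headers, read here as matches to 1 entry or to several. Aligner, mismatches, miRBase version, build and read filters are each not given in the sources used here. Unique-match counts were used, scaled with TMM factors of 0.798 to 1.29 (edgeR 4.0.16, R 4.3.3) computed on the 351 entries with a mean of at least 50 unscaled counts, which the deepest library weighs most. Log2 ratios carry a prior count of 0.5 per library. Intervals at 95% are exact Poisson for levels, exact binomial (Clopper-Pearson) for shares and conditional binomial for ratios, all from SciPy 1.17.1 and covering counting error only. The ratio intervals and the size rule were tested on simulated counts with counting error only. This leaves the scaling and any spread between libraries untested. With 1 library per group no spread between replicates can be estimated. Median of ratios (DESeq2 1.42.0) was among the alternatives. Members and lists were chosen with earlier results of these data known. Named miRNAs are the members, the other arms and paralogs of their hairpins, entries of the marker lists with at least 10 reads in a library, and the 5 most alike. Those with fewer reads or 0 (miR-1a-3p, miR-206-3p, miR-208a-3p, miR-208b-3p, miR-499-5p, miR-142a-3p, miR-223-3p, miR-144-3p, miR-451a and miR-1957a) were named after their values were seen. miR-761, in none of the lists, was named because it shares the seed of miR-214-3p. Of the names in the lists, miR-3120-3p, miR-3120-5p and miR-5097 are not analysed here.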

Additional observations from a re-analysis of the deposited data

Results flagged for a closer look

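The RA responses of the genotypes differed beyond counting error, with no replicate behind either, for miR-143-3p (Wt1 KO minus WT, 1.84 on the log2 scale), miR-133a-3p (2.72), miR-199a/b-3p (2.30) and miR-199a-5p (2.34). In all 4 the response was larger in Wt1 KO, as it was for 23.1% of the background, with 15.1% smaller. The call of miR-199a-5p is lost with a prior count of 0.1, at 2.13 [-0.25 to 4.51]. The Wt1 KO library with RA is in each of these differences, and the difference was not tested across samples, since each group has 1 library.

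Outside the unique matches, miR-133a-3p had 35 multi-matched reads in WT with RA, against 0 in the untreated libraries. They stand beside 2830 unique reads, and miR-133b-3p also lists 35 there.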

How the results depend on the processing

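The members' ratios were recomputed under 7 alternatives: CPM of the total, median of ratios, CPM with the stem cell clusters miR-290 and miR-302 left out, TMM over the 2 libraries compared, prior counts of 0.1 and 2, and multi-matches added. Of 276 values 258 stayed within the main interval, 18 moved and 0 changed the sign of a call. In the comparison of untreated genotypes the number of higher members went from 1 to 0 as CPM of the total and without the stem cell clusters. With RA in WT the number of lower members went from 0 to 1 by the median of ratios and without the stem cell clusters (miR-145a-5p, -1.03 and -1.09). After 24 h of dox the number of higher members went from 0 to 1 without the stem cell clusters (miR-199a/b-3p, 1.00). The cause was not tested.

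The number of background calls followed the number of entries kept. With a minimum mean of 10 it was 71 at dox 12 h (main 45), 63 at dox 24 h (main 33) and 37 for 24 h against 12 h (main 19). With a minimum of 200 it was 53 for untreated Wt1 KO against WT (main 97), 98 for RA in WT (main 163) and 21, 18 and 12 for the dox comparisons. With no minimum these 5 were 147, 274, 80, 77 and 48. With at least 10 counts in 3 or more libraries it was 58 at dox 24 h and 34 for 24 h against 12 h. Without the stem cell clusters the split of higher and lower was 25 and 76 for untreated Wt1 KO against WT, 116 and 41 for RA in Wt1 KO, 93 and 37 for the genotypes with RA, 44 and 9 at dox 12 h and 37 and 6 at dox 24 h, and by the median of ratios 22 and 23 at dox 12 h. The median of all entries shifted, as CPM of the total, by -0.36 for untreated Wt1 KO against WT, 0.24 for the genotypes with RA, and 0.21 and 0.23 at dox 12 h and 24 h.

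Depth limits miR-145a-5p and the miR-214 and 5′ miR-199 entries most, and Wt1 KO with RA least resolves low levels. No paired analysis was possible because each group has 1 library. For the same reason leaving out a replicate was not run.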
